A study of Mus musculus with 16 samples.

Results

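The ligands and receptors of the GDNF family were followed in crushed sciatic nerves of WldS and C57BL/6 mice. The 7 genes were the ligands Gdnf, Artn and Nrtn, the co-receptors Gfra1, Gfra2 and Gfra3, and the signalling receptor Ret. They were found as the probe sets that the platform's probe table assigns to 1 of these symbols alone. This gave 14 probe sets of 34945 with a single symbol, and 7 genes of 18193. Where several probe sets measured a gene, the one brightest on average across the 16 arrays stood for it. Of the 7 genes, 6 passed the filter on dim genes (mean log2 signal of at least 5.37), and Artn did not.

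GDNF, artemin and neurturin are secreted proteins of the TGF-β superfamily. Each binds a preferred co-receptor that is anchored in the membrane by a lipid, GFRα1 for GDNF, GFRα3 for artemin and GFRα2 for neurturin, and the pair then activates the receptor tyrosine kinase Ret. GFRα1 can also pass the signal through the adhesion molecule NCAM. In injured peripheral nerve, Schwann cells that have lost contact with axons are a known source of GDNF, which supports motor and sensory neurons. Work in mice has placed Gdnf and Artn among genes that depend on the transcription factor c-Jun in these cells. Ret is best known from neurons, whose cell bodies lie outside the dissected nerve segment.

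The groups were WldS mice (C57BL/6 OlaHsd-Wlds, carrying the WldS mutation) at days 0, 3, 7 and 14, and wild-type C57BL/6 mice at the same days. WldS is a fusion gene that delays the degeneration of cut axons. All mice were 8 to 12 weeks old, with 56 per strain. The left nerve had been crushed at mid-thigh, except at day 0, when nerves were uninjured. A 4 mm piece lying 1 to 5 mm beyond the crush was taken, and RNA came from pooled pieces, with 2 arrays in each of the 8 groups. The number of mice behind an array is not given, nor whether the 2 arrays came from separate dissections, so p-values measure only the spread between arrays. The WldS gene and the OlaHsd substrain cannot be told apart in this design.

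Values are log2 signals of an Affymetrix mouse whole-genome array, for which the number of arrays, not a read depth, limits the precision. Nmnat1, part of the WldS fusion, read 8.50 to 9.35 on the WldS arrays, against 5.42 to 6.34 on the C57BL/6 arrays. Each array thus matched the strain in its label, and Nmnat1 cannot check the day. Sox10 and the other 4 Schwann cell markers measured were above the filter in every group. Of 5 skeletal muscle markers, 1 to 3 were below it. The arrays' 3'/5' index, which grows as RNA degrades, stood highest at 3.81 (WldS day 0 replicate 1) and 3.23 (WldS day 14 replicate 2). The other 14 arrays lay between 1.63 and 2.46. Differences are fitted means ± standard error. A gene is called at an adjusted p below 0.05, from limma with Benjamini-Hochberg adjustment over the 14545 genes tested in that comparison.

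Gdnf is the member with the widest range, and the sequence before its start is shown because its change was the deepest between the strains. RefSeq places this window at chr15:7809798-7810047 on the plus strand of GRCm38.p6, which is the 250 bases before the annotated start and lies outside the gene. The capitals mark a TATA box word, TATAAA, whose first base is 31 bases before the start.
Gdnf: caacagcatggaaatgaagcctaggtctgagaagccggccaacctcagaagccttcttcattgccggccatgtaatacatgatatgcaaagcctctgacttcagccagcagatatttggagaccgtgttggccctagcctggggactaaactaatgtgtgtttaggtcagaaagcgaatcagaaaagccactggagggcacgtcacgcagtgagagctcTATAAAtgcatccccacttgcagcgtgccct

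Windows were present for 4 of the 7 genes (Gdnf with 2 starts, Artn, Nrtn and Gfra1), and 5 words were searched in their 250 bases on both strands, with N for any base. TATAAA occurred in 12.37% of 32851 such windows, and among the members only in the window shown, where no other of the 5 words matched. The GC box word GGGCGG, present in 32.74% of windows, matched in Artn and Nrtn. The AP-1 word TGANTCA (6.749% of windows), the CRE word TGACGTCA (1.546%) and the Sox word ACAAAG (16.46%) matched in none of the 5 member windows. A match or its absence describes these letters only.

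Gdnf RNA rose steeply in C57BL/6 nerves by day 3 and was lower again by day 14. In WldS nerves it did not pass the test at day 3 and rose at days 7 and 14. The change from day 0 was smaller in WldS by the interaction test at days 3 and 7, and that test was not passed at day 14 (0.17 ± 0.23, limma adjusted p = 0.864). The Gdnf signal of WldS nerves was 4.97 and 5.60 at day 0, 5.56 and 5.74 at day 3, 6.55 and 6.48 at day 7, and 6.77 and 6.72 at day 14. The signal of C57BL/6 nerves was 5.08 and 4.93 at day 0, 10.15 and 10.06 at day 3, 7.18 and 7.37 at day 7, and 6.37 and 6.23 at day 14. Both C57BL/6 day 3 arrays stood far above all other arrays. The day 3 and day 0 arrays of WldS overlapped.

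**Figure D1:**
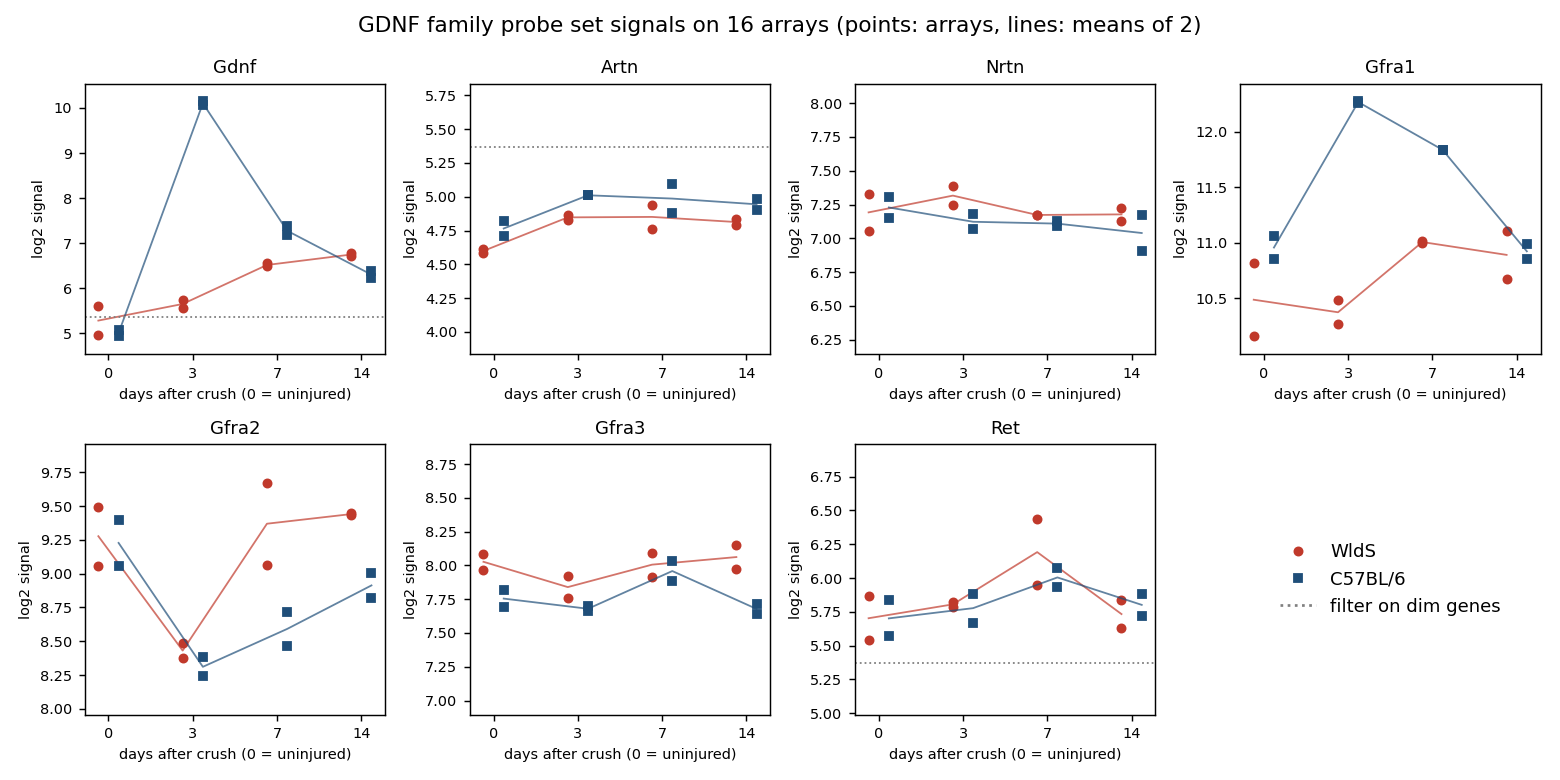
Log2 signal of each member on the 16 arrays by day after crush, with WldS as circles and C57BL/6 as squares, lines through the means of 2 arrays, and a dotted line at the filter on dim genes where it falls within the axis. The C57BL/6 peak of Gdnf (10.15 and 10.06) and of Gfra1 (12.26 and 12.27) is at day 3, and Artn lies below the filter throughout.

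Against day 0, Gdnf in C57BL/6 nerves was higher by 5.10 ± 0.17 at day 3 (34.2-fold, limma adjusted p = 4.643e-11). The difference from day 0 was 2.27 ± 0.17 at day 7 (4.82-fold, limma adjusted p = 1.238e-07) and 1.29 ± 0.17 at day 14 (2.45-fold, limma adjusted p = 3.904e-05). Both steps down passed the test, with -2.83 ± 0.17 for day 7 against day 3 (limma adjusted p = 1.297e-07) and -0.97 ± 0.17 for day 14 against day 7 (limma adjusted p = 0.002347). The day 0 means were 5.28 in WldS and 5.01 in C57BL/6 nerves, both under the filter on dim genes. Whether signals this dim stood above background is not given. If they did not, the rises of Gdnf from day 0 and their folds would be lower bounds in either strain. In pooled tissue, fewer cells of a type and less RNA per cell cannot be told apart.

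In WldS nerves the Gdnf difference from day 0 was 0.37 ± 0.17 at day 3 and missed the threshold (limma adjusted p = 0.0991). It depended on the day 0 arrays, being 0.68 without WldS day 0 replicate 2, where it passed the threshold, and 0.053 without WldS day 0 replicate 1. Gdnf then rose, by 1.23 ± 0.17 at day 7 (2.35-fold, limma adjusted p = 7.433e-05) and by 1.47 ± 0.17 at day 14 (2.76-fold, limma adjusted p = 2.551e-05). Day 7 was higher than day 3 by 0.87 ± 0.17 (limma adjusted p = 0.005092), a call that was lost without WldS day 3 replicate 1. From day 7 to day 14 the difference of 0.23 ± 0.17 was not called (limma adjusted p = 0.4965).

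Between the strains, Gdnf at day 3 was lower in WldS, with a log2 difference of -4.45 ± 0.17 (21.9-fold, limma adjusted p = 5.827e-10). No other of the 14545 genes had a lower value in that comparison. The interaction, which takes the C57BL/6 change since day 0 off that of WldS, was -4.73 ± 0.23 at day 3 (limma adjusted p = 3.348e-08). It rests on the dim day 0 signals of both strains, so its size is that of array signals only. At day 7 the strain difference was -0.76 ± 0.17 (limma adjusted p = 0.01108) and the interaction -1.03 ± 0.23 (limma adjusted p = 0.02407). Leaving out 1 array ended both day 7 calls. The strain call was lost without replicate 2 of either strain at day 7 (-0.66 without the C57BL/6 array and -0.73 without the WldS array). The interaction call was lost without either C57BL/6 day 0 array, either C57BL/6 day 7 array or WldS day 7 replicate 2, with values of -1.13 to -0.94. At day 14 the signal was higher in WldS on both arrays (6.77 and 6.72, against 6.37 and 6.23), but the difference of 0.45 ± 0.17 missed the threshold (limma adjusted p = 0.129). That value passed it without either WldS day 0 array. At day 0 the difference of 0.28 ± 0.17 was not called (limma adjusted p = 0.3861).

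**Figure D2:**
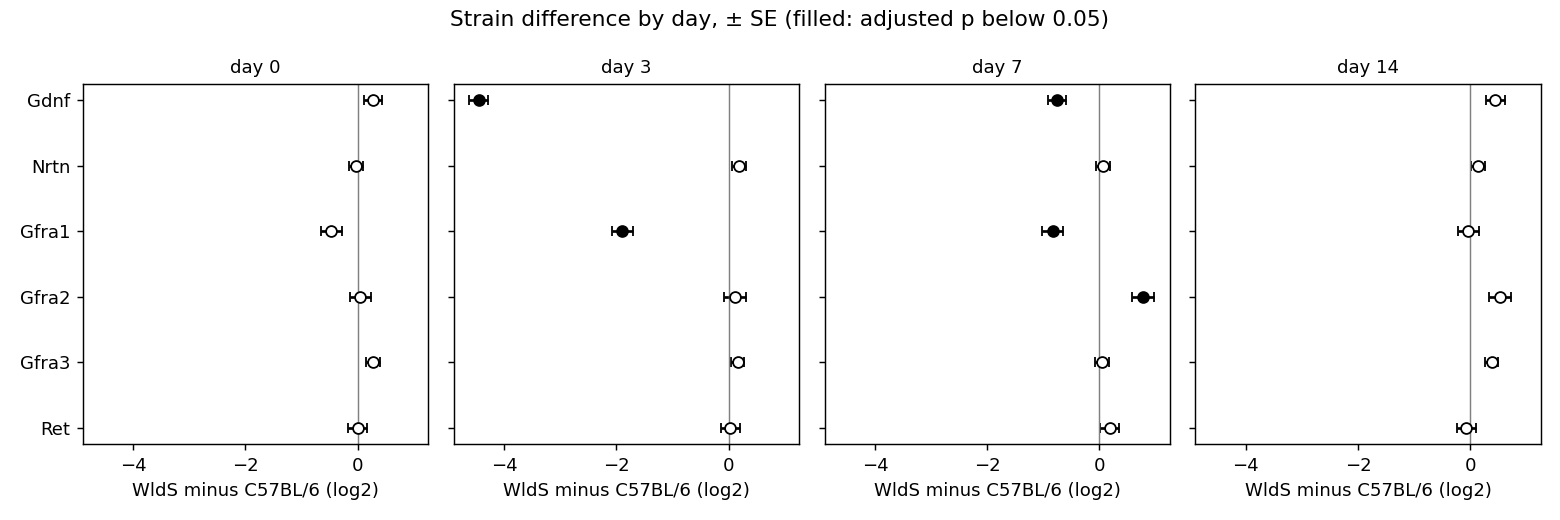
Fitted log2 difference, WldS minus C57BL/6, of the 6 members tested at each day, with bars of 1 standard error and filled points where the adjusted p is below 0.05. At day 3 Gdnf (-4.45) and Gfra1 (-1.89) are filled and the other 4 lie near 0.

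The later WldS time points were also set against the earlier C57BL/6 ones. The Gdnf signal at WldS day 7 was still below that at C57BL/6 day 3 (-3.59 ± 0.17, limma adjusted p = 1.014e-08). WldS day 14 against C57BL/6 day 7 gave -0.53 ± 0.17 and missed the threshold (limma adjusted p = 0.05697), which it passed without either WldS day 0 array. Ordered by group mean, Gdnf was 10.10 in C57BL/6 at day 3, 7.28 in C57BL/6 at day 7, 6.75 in WldS at day 14, 6.52 in WldS at day 7, 6.30 in C57BL/6 at day 14, 5.65 in WldS at day 3, 5.28 in WldS at day 0 and 5.01 in C57BL/6 at day 0. Of the neighbouring pairs tested, only C57BL/6 day 3 and day 7 differed beyond the threshold.

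**Figure D3:**
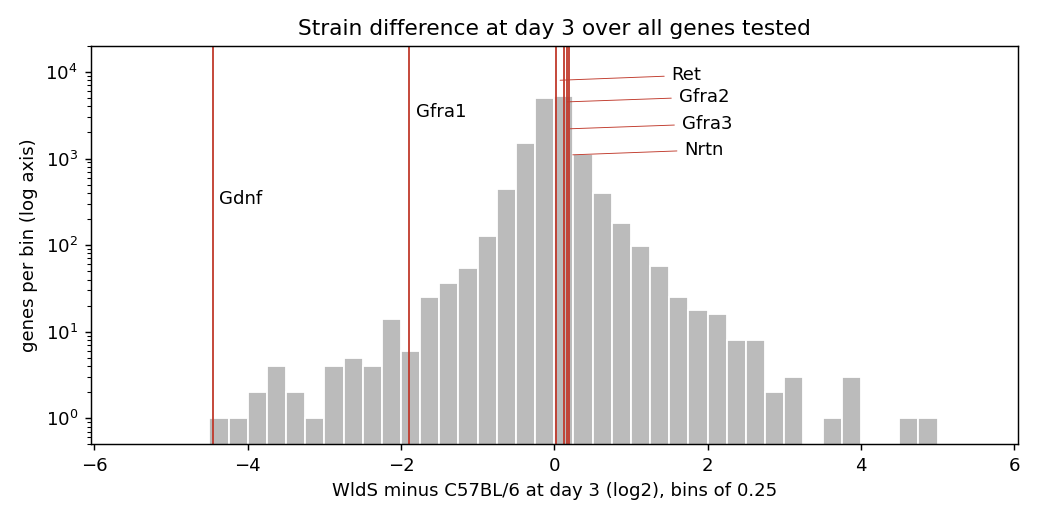
Histogram of the log2 difference WldS minus C57BL/6 at day 3 over 14545 genes in bins of 0.25, with the number of genes on a log axis and vertical lines at the members. Gdnf (-4.45) is the gene at the low end, Gfra1 (-1.89) is in the lower tail, and the other 4 members are in the central bins.

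Markers of several cell types differed between the strains at day 3, where 9.44% of all genes were called. The summed linear signal of 5 Schwann cell markers of 6 listed was 6270 and 6229 in WldS, against 8065 and 9343 in C57BL/6 nerves. For 4 of 6 myelin genes it was 33372 and 33113 in WldS, against 11338 and 10581 in C57BL/6 nerves. The 3 markers of dividing cells summed to 3372 and 3636 in WldS, against 6152 and 6334 in C57BL/6 nerves. Limma called all 4 myelin genes higher and all 3 markers of dividing cells lower in WldS, and of the 5 Schwann cell markers 1 higher and 1 lower. The 3 perineurial markers, all called higher, summed to 5832 and 5721 in WldS, against 3002 and 2995 in C57BL/6 nerves. The 3 mast cell markers, 2 of them called higher, summed to 1238 and 986 in WldS, against 483 and 364 in C57BL/6 nerves. The 5 markers of pericytes and smooth muscle, 2 of them called higher, summed to 13441 and 13827 in WldS, against 10919 and 9727 in C57BL/6 nerves. None of these markers had a group mean below the filter at day 3. The 6 neuronal markers, of which 1 was called higher and 2 lower among 4 tested, summed to 417 and 433 in WldS, against 844 and 697 in C57BL/6 nerves. Of them, 2 in WldS and 3 in C57BL/6 nerves were below the filter. Of 2 neutrophil markers, 1 was called higher in WldS. For 6 macrophage markers the sums were 20638 and 18240 in WldS, against 17012 and 16281 in C57BL/6 nerves, and limma called 0 of 6, with 2 at an unadjusted p below 0.05. For the fibroblast, endothelial, skeletal muscle and adipocyte lists limma also called 0, of 5, 5, 3 and 2 markers tested, with 1, 0, 1 and 0 at an unadjusted p below 0.05. The part of these cell types in the Gdnf difference was not tested. The 3'/5' index did not set the strains apart at day 3, with 1.68 and 1.94 in WldS, against 1.99 and 1.63 in C57BL/6 nerves.

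Nrtn encodes neurturin, the preferred ligand of GFRα2. Its signal lay between 6.90 and 7.38 on all 16 arrays. None of its 19 comparisons was called by limma, and none had an unadjusted p below 0.05. Its differences ran from -0.19 to 0.23, with a standard error of 0.13 for a pair of groups. The arrays of WldS and C57BL/6 overlapped at days 0 and 14.

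Artn encodes artemin, the ligand of GFRα3. Its single probe set read 4.58 to 5.09, below the filter on every array, and it was not tested. Artn was 4.58 and 4.62 in WldS nerves at day 0, 4.86 and 4.83 at day 3, 4.94 and 4.76 at day 7, and 4.84 and 4.79 at day 14. C57BL/6 nerves gave 4.82 and 4.71 at day 0, 5.01 and 5.01 at day 3, 5.09 and 4.88 at day 7, and 4.90 and 4.98 at day 14.

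Gfra1, the co-receptor gene for GDNF, showed the same early strain difference at a smaller size. Its brightest probe set in WldS nerves read 10.16 and 10.82 at day 0, 10.27 and 10.48 at day 3, 11.00 and 11.01 at day 7, and 11.11 and 10.67 at day 14. The same probe set in C57BL/6 nerves read 11.06 and 10.85 at day 0, 12.26 and 12.27 at day 3, 11.84 and 11.83 at day 7, and 10.86 and 10.99 at day 14. The C57BL/6 arrays of days 3 and 7 were above all other arrays, and WldS at day 3 stayed within the range of its day 0 arrays.

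Gfra1 rose in C57BL/6 nerves by 1.31 ± 0.19 at day 3 (2.48-fold, limma adjusted p = 5.856e-05) and by 0.88 ± 0.19 at day 7 (1.84-fold, limma adjusted p = 0.002075), and it was not called at day 14. Day 14 was lower than day 7 (-0.91 ± 0.19, limma adjusted p = 0.009008). That step down lost its call without either C57BL/6 day 7 array or without C57BL/6 day 14 replicate 1. In WldS nerves the rise at day 7 was 0.52 ± 0.19 (limma adjusted p = 0.04438). It lost its call in 13 of the 16 fits that left out 1 array and fell to 0.19 without WldS day 0 replicate 1, the array with the highest 3'/5' index. It was 0.85 without WldS day 0 replicate 2.

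The strain difference of Gfra1 at day 3 was -1.89 ± 0.19 (3.71-fold, limma adjusted p = 1.108e-05), which ranked 41 from the lowest of 14545 genes. The interaction at day 3 was -1.42 ± 0.26 (limma adjusted p = 0.004901). At day 7 the strain difference was -0.83 ± 0.19 (limma adjusted p = 0.01373), a call lost without any single one of the 4 day 7 arrays. The interaction at day 7 was -0.36 ± 0.26 and not called (limma adjusted p = 0.5171). At day 0 Gfra1 was -0.47 ± 0.19 and not called (limma adjusted p = 0.2351). Leaving out WldS day 0 replicate 2 gave -0.80, which was called, and leaving out replicate 1 gave -0.14. Gfra1 in WldS at day 7 was below C57BL/6 at day 3 (-1.26 ± 0.19, limma adjusted p = 0.0003644). WldS at day 14 was below C57BL/6 at day 7 with -0.94 ± 0.19 (limma adjusted p = 0.005126), which was -0.73 and not called without WldS day 14 replicate 2.

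The other probe sets of Gfra1 gave the same direction between the strains at day 3, in a fit over 25872 probe sets. The dimmest of the 3 read 5.86 and 6.02 in WldS at day 3, against 8.15 and 8.17 in C57BL/6 nerves, a difference of -2.22 ± 0.14 (limma adjusted p = 2.187e-07). The probe set of middle brightness read 7.47 and 7.67 in WldS, against 9.35 and 10.45 in C57BL/6 nerves, with -2.33 ± 0.47 (limma adjusted p = 0.006698). The interaction at day 3 was called on the dimmest (-2.37 ± 0.20, limma adjusted p = 1.006e-05), but not on the middle one (-1.77 ± 0.66, limma adjusted p = 0.1761). Between the strains at day 7, the dimmest was called (-0.87 ± 0.14, limma adjusted p = 0.001801). The middle one was not (-1.47 ± 0.47, limma adjusted p = 0.1048). The interaction at day 7 was called on the dimmest (-1.02 ± 0.20, limma adjusted p = 0.01312), but not on the middle one (-0.90 ± 0.66, limma adjusted p = 0.5456). The probe sets disagreed on the later course in both strains. At day 14 against day 0 in C57BL/6 nerves, the middle one was still higher by 1.65 ± 0.47 (limma adjusted p = 0.01616), where the brightest gave -0.03 and the dimmest -0.29, neither called. From day 3 to day 7 in C57BL/6 nerves the dimmest fell (-1.21 ± 0.14, limma adjusted p = 7.627e-05), and the middle one gave 0.41 and was not called. At day 7 against day 0 in WldS, the middle one rose by 2.08 ± 0.47 (limma adjusted p = 0.004313), while the dimmest was -0.37 and not called (limma adjusted p = 0.0559). At day 3 the dimmest fell in WldS, with -0.51 ± 0.14 (limma adjusted p = 0.012). On the middle probe set the WldS day 0 arrays were far apart, at 6.15 and 7.39.

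**Figure D4:**
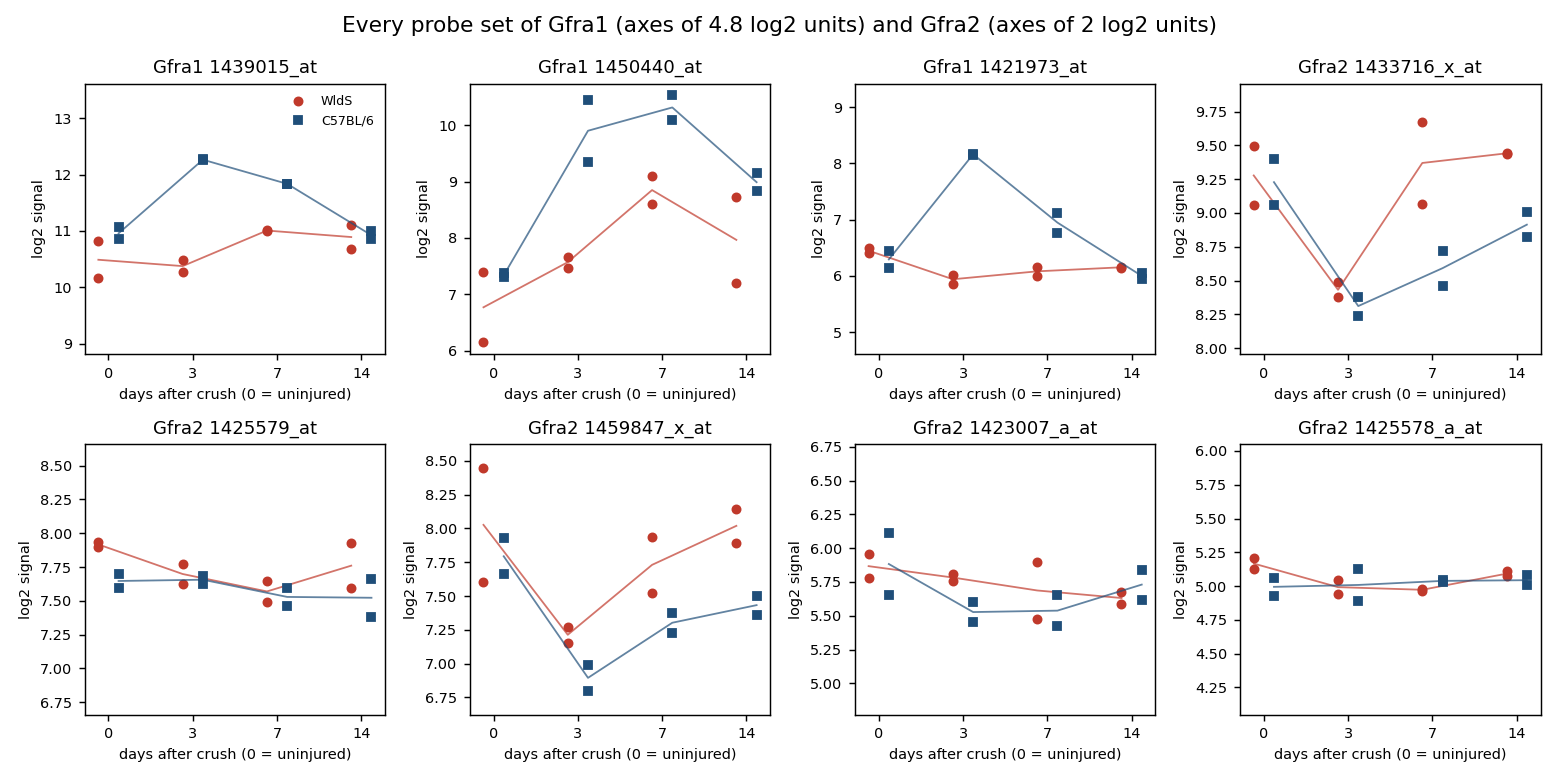
Log2 signal by day of the 3 probe sets of Gfra1 and the 5 of Gfra2, with WldS as circles, C57BL/6 as squares and lines through the means of 2 arrays. The Gfra1 axes all span 4.8 log2 units and the Gfra2 axes all span 2 log2 units, and the fall of Gfra2 at day 3 is seen in the panels with the suffix x_at.

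Gfra2, the co-receptor gene for neurturin, fell early in both strains. The signal of that probe set in WldS nerves was 9.49 and 9.06 at day 0, 8.38 and 8.49 at day 3, 9.67 and 9.07 at day 7, and 9.45 and 9.44 at day 14. Its signal in C57BL/6 nerves was 9.06 and 9.40 at day 0, 8.38 and 8.24 at day 3, 8.72 and 8.46 at day 7, and 8.823 and 9.004 at day 14. The day 3 arrays of each strain were below their own day 0 arrays, and the WldS arrays of day 7 were not below those of day 0.

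The fall at day 3 was -0.85 ± 0.19 in WldS (limma adjusted p = 0.003547) and -0.92 ± 0.19 in C57BL/6 nerves (limma adjusted p = 0.001543). The WldS fall missed the threshold, at -0.63, without the 2 arrays of high 3'/5' index. C57BL/6 was still lower at day 7, with -0.64 ± 0.19 (limma adjusted p = 0.01913), a call lost without C57BL/6 day 0 replicate 2 or C57BL/6 day 7 replicate 2. Within WldS, day 7 was higher than day 3 by 0.94 ± 0.19 (limma adjusted p = 0.008503), which was lost without WldS day 3 replicate 1 or WldS day 7 replicate 1. At day 7 Gfra2 was higher in WldS than in C57BL/6 by 0.78 ± 0.19 (limma adjusted p = 0.02448). That call was lost without either C57BL/6 day 7 array, and without WldS day 7 replicate 1, where the difference was 0.48. The interaction at day 7 was 0.73 ± 0.27 and not called (limma adjusted p = 0.1736). Gfra2 was also higher in WldS at day 7 than in C57BL/6 at day 3, by 1.06 ± 0.19 (limma adjusted p = 0.001753). It was higher in WldS at day 14 than in C57BL/6 at day 7 by 0.85 ± 0.19 (limma adjusted p = 0.01186), a call lost when replicate 2 of either group was left out.

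The 5 probe sets of Gfra2 did not move alike. The brightest and the third brightest fell at day 3, the third brightest with -0.81 ± 0.22 in WldS (limma adjusted p = 0.01252) and -0.90 ± 0.22 in C57BL/6 nerves (limma adjusted p = 0.005519). Both carry the suffix x_at, which marks probe sets that may also bind other transcripts. Of the others, the second and the fourth in brightness were called in no comparison, and the dimmest was below the filter. With the mean of all probe sets in place of the brightest, the difference was -0.31 for C57BL/6 day 7 against day 0, 0.27 between the strains at day 7, 0.24 for WldS day 7 against day 3 and 0.39 for WldS day 14 against C57BL/6 day 7, and all of these lost their call. The falls at day 3 were -0.43 in both strains and WldS day 7 against C57BL/6 day 3 was 0.39, and these kept it.

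Gfra3, the co-receptor gene for artemin, lay between 7.64 and 8.15 on the 16 arrays. Limma called 0 of its 19 comparisons, of which 5 had an unadjusted p below 0.05. At day 14 it was 7.97 and 8.15 in WldS, against 7.72 and 7.64 in C57BL/6 nerves. These arrays did not overlap, but the difference of 0.38 ± 0.12 missed the threshold (limma adjusted p = 0.07003). It was called after quantile normalization, at 0.44. At day 0 the strain difference was 0.27 ± 0.12, also without overlap of the arrays, and not called (limma adjusted p = 0.2588). The interaction at day 14 was 0.11 ± 0.17 and not called (limma adjusted p = 0.879). WldS day 7 against C57BL/6 day 3 gave 0.33 ± 0.12 (limma adjusted p = 0.0694). Taking the mean of probe sets for every gene left both Gfra3 values, from its single probe set, at 0.38 and 0.33, and both were then called.

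Ret, the receptor tyrosine kinase shared by the family, was near the filter, between 5.54 and 6.44. On the WldS arrays it read 5.86 and 5.54 at day 0, 5.79 and 5.82 at day 3, 6.44 and 5.95 at day 7, and 5.84 and 5.63 at day 14. On the C57BL/6 arrays it read 5.84 and 5.57 at day 0, 5.67 and 5.88 at day 3, 5.93 and 6.07 at day 7, and 5.72 and 5.88 at day 14. On this brighter probe set, the day 7 arrays of both strains were above their day 0 arrays. The rise in WldS at day 7 was 0.49 ± 0.17 (limma adjusted p = 0.03682), and it was 0.33 and not called without WldS day 0 replicate 2, and 0.24 and not called without WldS day 7 replicate 1. The day 7 difference in C57BL/6 nerves was 0.30 ± 0.17 and not called (limma adjusted p = 0.1891). It turned to -0.087 with the mean of both Ret probe sets. The dimmer probe set gave 0.49 for WldS at day 7 (limma adjusted p = 0.1073). For C57BL/6 at day 7 it gave -0.48 ± 0.22, which was not called (limma adjusted p = 0.1215). There both C57BL/6 day 7 arrays (5.55 and 5.27) were below those of day 0 (6.15 and 5.62). No strain difference of Ret was called on either probe set. These ran from -0.07 to 0.19 on the brighter one and from -0.30 to 0.66 on the dimmer one. The value of 0.66 ± 0.22 was at day 7, where the arrays did not overlap (limma adjusted p = 0.1238). On the dimmer probe set the interaction at day 7 was 0.97 ± 0.31 and not called (limma adjusted p = 0.1382).

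The number of members called was read against all genes tested. At day 3 in C57BL/6 nerves, 2 of 6 members rose and 1 fell, where 41% of genes were called. At day 7 there were again 2 that rose and 1 that fell, with 36.1% of genes called, and at day 14 Gdnf alone rose, with 33.7% called. For day 7 against day 3, 1 member was lower (20.3% of genes called), and for day 14 against day 7, 2 were lower (5.27%). In WldS nerves 1 member, Gfra2, fell at day 3 (36% of genes called). At day 7 there were 3 that rose (35.2%), and at day 14 Gdnf alone (21.3%). For day 7 against day 3 in WldS, 2 members were higher (6.62% of genes called). For day 14 against day 7, limma called 0 members, with 1 at an unadjusted p below 0.05 (5.23% of genes called). With 6 members tested, counts of 1 to 3 against day 0 are not far from the shares of all genes.

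Between the strains, limma called 0 of 6 members at day 0, with 2 at an unadjusted p below 0.05, where 0.227% of all genes were called. At day 3, 2 of 6 were lower in WldS (9.44% of genes called), and at day 7, 2 were lower and 1 was higher (6.83%). At day 14 limma called 0 members, with 3 at an unadjusted p below 0.05 (6.46% of genes called). The interaction was called for 2 members at day 3 (6.16% of genes) and for 1 at day 7 (4.11%). At day 14 it was called by limma for 0, with 0 at an unadjusted p below 0.05 (1.58%). For WldS day 7 against C57BL/6 day 3, 2 members were lower and 1 higher (18.1% of genes called), and for WldS day 14 against C57BL/6 day 7, 1 was lower and 1 higher (10.6%). The median strain difference at day 3 was 0.07 over the 6 members and 0.00 over all genes, so the large values belonged to Gdnf and Gfra1. These comparisons share arrays and are not independent of each other.

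The genes whose 8 group means were most like those of the called members are given as a description. For Gdnf they were Lgr6, a receptor for R-spondins (Pearson r = 0.99), Clcf1, a cytokine of the interleukin-6 family (0.98), and Gpatch4 (0.98). Lgr6 averaged 6.93 in WldS at day 3, against 9.68 in C57BL/6, and Clcf1 averaged 6.76 in WldS, against 10.32 in C57BL/6. For Gfra1 they were the transcription factor gene Zeb1 (0.99), the scaffold gene Dlg1 (0.97) and the Mediator subunit gene Med29 (0.96). For Gfra2 they were Zfp759 (0.96), the keratin gene Krt6b (0.96) and Tex15 (0.95). Over the 8 groups Zfp759 averaged only 6.19 to 6.49, and Krt6b 5.26 to 5.49, around the filter on dim genes. For Ret they were Dlk1 (0.96), 4930474N05Rik (0.95) and Chga, which encodes chromogranin A (0.95). Dlk1 averaged 8.64 in WldS at day 7, against 8.11 in C57BL/6, and between 5.48 and 6.02 in the other groups. The Ret match 4930474N05Rik was nearly flat, at 5.49 to 5.60 over the 8 groups. Each match was picked as among the highest correlations over all genes tested. The 8 points share their arrays, so no p is given.

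Of 5 partners that bind GFRα or Ret proteins, all tested, 1 was lower in WldS at day 3 (9.44% of all genes called), 1 was lower at day 7 (6.83%) and 1 was higher at day 14 (6.46%). At day 3 the list had a median of -0.19 against 0.00 over all genes. At day 0 its median was -0.12, and the interaction at day 3 had a median of -0.07. The gene called at day 3 was Ncam1, which encodes the adhesion molecule that GFRα1 can signal through, with 8.22 and 8.40 in WldS, against 8.99 and 8.99 in C57BL/6 nerves (-0.68 ± 0.11, limma adjusted p = 0.0009258). In WldS nerves at day 3, 2 rose and 1 fell (36% of all genes called). Those that rose were Sdc3, a heparan sulphate proteoglycan known to bind GDNF (1.29 ± 0.24), and Sorl1, a sorting receptor for GDNF and GFRα1 (0.74 ± 0.15). At day 3 in C57BL/6 nerves Sorl1 rose (1.20 ± 0.15) and Gas1, a protein related to GFRα receptors, fell (-0.54 ± 0.18). There 41% of all genes were called. Of 4 other family genes listed, Gfral and Gdf15 were not measured. Pspn, which encodes persephin, and its co-receptor gene Gfra4 had 0 of 38 comparisons called by limma, with 2 at an unadjusted p below 0.05. The shares of all genes called ran from 0.227% to 41% over the comparisons.

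Adaptors and effectors of Ret moved in both directions. Of 22 listed, 19 were tested. In WldS at day 3, 6 rose and 4 fell, and in C57BL/6 nerves 8 rose and 3 fell, with list medians of 0.00 and 0.14, against -0.02 and 0.02 over all genes. Over all genes 36% were called in WldS and 41% in C57BL/6 nerves. Without the 2 arrays of high 3'/5' index the WldS counts at day 3 were 4 and 2. Grb10, an adaptor that binds Ret, rose in both strains, by 1.87 ± 0.18 in WldS and 1.11 ± 0.18 in C57BL/6 nerves at day 3. At the same day in C57BL/6 nerves, Pik3r1, a regulatory subunit of phosphatidylinositol 3-kinase, fell (-1.65 ± 0.25), as did the docking protein gene Gab1 (-1.55 ± 0.17), while Gab2 (1.26 ± 0.22) and Dok2 (1.25 ± 0.20) rose. Between the strains at day 3, 2 of the 19 were called higher in WldS, Gab1 (0.83 ± 0.17) and Pik3r1 (0.85 ± 0.25). Called lower were 2, Gab2 (-0.80 ± 0.22) and Dok4 (-0.68 ± 0.12), where 9.44% of all genes were called. The list median there was -0.07, against 0.00 over all genes. The interaction at day 3 was called higher for 1 and lower for 1 of the 19 (6.16% of all genes called).

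Feedback inhibitors of ERK signalling and ETS factors, 9 tested of 10, gave 3 that were lower in WldS at day 3 and 0 higher, with a median of -0.50 (9.44% of all genes called). These were the phosphatase gene Dusp4 (-1.70 ± 0.24, limma adjusted p = 0.0003507), Spry2 (-0.67 ± 0.12, limma adjusted p = 0.001938) and Spred2 (-0.58 ± 0.16, limma adjusted p = 0.03145). Without the 2 arrays of high 3'/5' index, 5 were lower. Between the strains at day 0 this list had a median of -0.29, with 0 of 9 called (0.227% of all genes called). The interaction at day 3 had a median of -0.27, with 1 of 9 lower (6.16% of all genes called). Dusp6, another ERK phosphatase gene, rose in both strains, by 1.04 ± 0.26 in WldS and 1.23 ± 0.26 in C57BL/6 nerves at day 3. Against day 0, 2 of 9 rose and 1 fell in WldS at day 3, and 3 rose and 1 fell in C57BL/6 nerves. These counts are near the shares of all genes called, 36% and 41%.

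Genes known as Ret targets from the developing mouse kidney, 4 tested of 6, included the receptor tyrosine kinase gene Met. It read 8.78 and 8.86 in WldS at day 3, against 11.32 and 11.62 in C57BL/6 nerves, a difference of -2.65 ± 0.12 (limma adjusted p = 4.399e-09), and it was the 1 gene of the list called there (9.44% of all genes). Against day 0, Met fell in WldS (-0.53 ± 0.12) and rose in C57BL/6 nerves (2.09 ± 0.12) at day 3. The interaction was -2.62 ± 0.17 (limma adjusted p = 4.815e-07). The protease gene Mmp14 rose in both strains, by 1.43 ± 0.12 in WldS and 0.88 ± 0.12 in C57BL/6 nerves.

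Genes of the repair Schwann cell, 8 tested of 10, are set beside Gdnf because the family's ligand is counted among them, and their strain difference was known from earlier results of these data. In WldS at day 3, 4 rose and 2 fell (36% of all genes called), and in C57BL/6 nerves 7 rose and 0 fell (41%). Between the strains 6 were lower in WldS and 0 higher (9.44%), with a median of -1.35 against 0.00 over all genes. Sox2, a transcription factor gene of immature Schwann cells, differed by -3.82 ± 0.13 (limma adjusted p = 1.587e-10), Ngfr by -3.66 ± 0.27 (limma adjusted p = 5.455e-07) and Btc, which encodes betacellulin, by -3.63 ± 0.20 (limma adjusted p = 3.605e-08). Jun, the gene of c-Jun, read 9.83 and 9.85 in WldS at day 3, against 10.31 and 10.48 in C57BL/6 nerves (-0.55 ± 0.12, limma adjusted p = 0.01041). Its rise from day 0 was 0.87 ± 0.12 in WldS and 0.98 ± 0.12 in C57BL/6 nerves, and the interaction of -0.11 ± 0.18 was not called (limma adjusted p = 0.7754). Shh rose in WldS already at day 3, by 3.10 ± 0.16 (limma adjusted p = 9.327e-09), where Gdnf was not called.

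**Figure D5:**
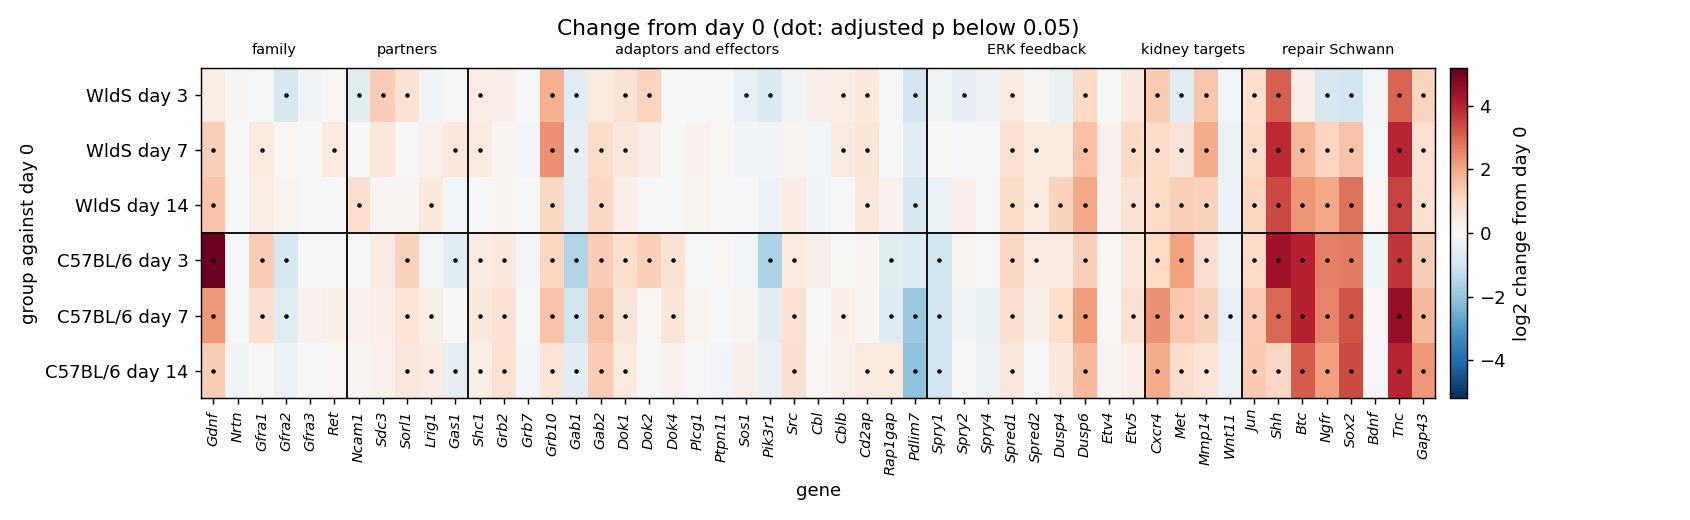
Fitted log2 change from day 0 (colour) of the 6 members tested and the genes of 5 pathway lists, with rows for WldS and then C57BL/6 at days 3, 7 and 14 and dots where the adjusted p is below 0.05. Gdnf at C57BL/6 day 3 (5.10) is the darkest cell, and in WldS the change at day 3 is small (0.37).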

How the data were processed

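The values were log2 signals for 45101 probe sets, used as the authors deposited them. The submitters' processing notes name GCOS 1.4, RMA, limma and Partek, without saying what each did. The probe table gave 34945 probe sets 1 gene symbol, 932 several and 9160 none, and 64 control probe sets were left out. Genes with a mean log2 signal under the 30th percentile (5.37) were removed, which left 14545 genes.

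A model with 8 group means was fitted with limma 3.58.1 in R 4.3.3, with 8 residual and 5.82 prior degrees of freedom, and gave 19 two-sided comparisons with Benjamini-Hochberg adjustment. Named were all 7 members and some genes of each pathway list, not always those of largest change. Also named were the 3 genes most alike by Pearson correlation to each member called against day 0. The members and lists were chosen with earlier results of these data known. Some listed pathway and marker genes are not analysed here.

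Replicate numbers were tested as pairs. Over 28 pairs of groups the correlation of deviations ran from -0.582 to 0.193 (median 0.00583), with 5 pairs over 0.1. No common shift by replicate number was seen, which cannot show whether arrays shared a dissection. The median SD between the 2 arrays of a group ran from 0.0608 to 0.145.

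Alternatives were median centring, quantile normalization, no filter or a 50th percentile filter, the mean of a gene's probe sets, the replicate block, a mean-variance trend, leaving out the 2 arrays of highest 3'/5' index, and leaving out each array.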

Additional observations from a re-analysis of the deposited data

Results flagged for a closer look

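The change from day 0 differed between WldS and C57BL/6 by the interaction test for 2 members. For Gdnf, the WldS change minus the C57BL/6 change was -4.73 ± 0.23 at day 3 (limma adjusted p = 3.348e-08) and -1.03 ± 0.23 at day 7 (limma adjusted p = 0.02407). For Gfra1 it was -1.42 ± 0.26 at day 3 (limma adjusted p = 0.004901). With 2 arrays in a group, single arrays were not tested for standing apart.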

How the results depend on the processing

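Of 30 called differences of the members, 230 of 239 refits under another setting kept the direction and the call, 9 lost the call and 0 reversed. When 1 array was left out, 440 of 480 refits kept both, 40 lost the call and 0 reversed. Uncalled differences were recomputed for Gdnf and, for the other members, where the adjusted p was below 0.25, 22 in all. Of these, 8 of 172 refits passed the threshold and 2 reversed, and 17 of 352 refits without 1 array passed it and 2 reversed. The Gfra1 rise of WldS at day 7 (0.52) lost its call under quantile normalization (0.37), without the 2 arrays of high 3'/5' index (0.19), with no filter and with the replicate block. Ret in C57BL/6 at day 7 turned to -0.087 with the mean of its probe sets. The Gdnf interaction at day 14 (0.17) turned to -0.12 without the 2 high-index arrays, and ran from -0.14 to 0.49 without 1 array. The Gdnf strain difference at day 0 (0.28) ran from -0.040 to 0.59 without 1 array. The cause of these shifts was not tested. With 2 arrays a group, 1 array decides many counts.

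The replicate block, which pairs arrays by number, gave 19 genes called between the strains at day 0, against 33 without it. Without the 2 high-index arrays, 2 members were called for C57BL/6 day 7 against day 3 (1 with all arrays), and fewer genes for WldS day 14 against day 7 (365, against 760), the strains at day 14 (563, against 939), the interaction at day 14 (139, against 230) and WldS day 14 against C57BL/6 day 7 (910, against 1538). The mean of probe sets called 1 member for WldS day 7 against day 3 (2 with the brightest), 1 for WldS day 14 against day 7 (0) and 1 between the strains at day 14 (0), where quantile normalization also called 1.

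Leaving out 1 array, members called ran from 1 to 2 for C57BL/6 day 7 against day 3, 1 to 2 for C57BL/6 day 14 against day 7, 1 to 2 for WldS day 3, 1 to 3 for WldS day 7, 1 to 2 for WldS day 14, 0 to 3 for WldS day 7 against day 3 and 0 to 1 for WldS day 14 against day 7. Between the strains they ran from 0 to 1 at day 0, 0 to 3 at day 7 and 0 to 1 at day 14, from 0 to 1 for the interaction at day 7, and from 0 to 3 for WldS day 14 against C57BL/6 day 7. Genes called ran from 1123 to 3481 for C57BL/6 day 7 against day 3, 314 to 962 for C57BL/6 day 14 against day 7, 3316 to 5423 for WldS day 3, 1767 to 3322 for WldS day 14, 319 to 1259 for WldS day 7 against day 3 and 246 to 1073 for WldS day 14 against day 7. Between the strains they ran from 7 to 1791 at day 0, 723 to 1647 at day 3, 427 to 1235 at day 7 and 344 to 1294 at day 14. The 1791 genes at day 0 were called without WldS day 0 replicate 2, against 20 without WldS day 0 replicate 1. The interaction gave 460 to 2058 genes at day 3, 235 to 1647 at day 7 and 57 to 525 at day 14. WldS day 7 against C57BL/6 day 3 gave 1405 to 3117 genes, and WldS day 14 against C57BL/6 day 7 gave 579 to 2099.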
